A study of Sus scrofa with 34 samples.

Results

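The collagen chain genes of the weaned pig were described in ileum and liver. They were chosen by name, as every row of the count tables whose pig gene symbol reads COL, a type number, A and a chain number. This gave 38 of the 25880 genes in the files: 11 fibrillar chains, 5 chains of the basement membrane network and 22 chains of other types. *COL4A1* and *COL19A1* had a symbol but no row and were not analysed here, nor were *COL7A1*, *COL9A2*, *COL20A1* and *COL26A1*.

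Collagens are trimers of chains that wind around each other over long stretches in which every triplet starts with glycine, written Gly-X-Y. Fibrillar collagens such as types I, III and V form the fibres of the connective tissue. Type IV collagens form the sheet under epithelia and endothelia, and the other types bead, link or anchor these structures or sit in the cell membrane. In gut the chains come mainly from fibroblasts and smooth muscle of the wall. In liver stellate cells and portal fibroblasts make most fibrillar collagen, and hepatocytes are a known source of type XVIII.

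The animals were weaned crossbred piglets (Landrace × Large White sows, Pietrain boar) sampled on day 28 of feeding. Control pigs had the basal diet. PFA pigs had it with a phytogenic feed additive, which held the oils of oregano and caraway together with menthol, carvacrol and methyl salicylate. OO pigs had it with oxidized oil, and OO + PFA pigs with both. The oxidized rapeseed oil took the place of part of the other ingredients, and no diet held as much fresh rapeseed oil. Effects of the oxidation and of the added fat and energy therefore cannot be told apart. Poly(A) RNA was sequenced in the ileum of 5 control and 5 PFA pigs and in the liver of 6 pigs of each diet, 34 libraries from 24 pigs, and 10 pigs gave both tissues. Both were pieces of whole tissue, so for every value below fewer cells of a type and less RNA per cell cannot be told apart. Since all pigs on a diet shared a pen, an effect of the pen and an effect of the diet cannot be told apart, and p-values measure the spread between these pigs. Pigs are named by a diet code (C, P, OO or OP for OO + PFA) and the number in the labels. Between 18772230 and 24338165 read pairs per ileum library and between 18738055 and 42446834 per liver library were counted on genes. Tests in the liver used 23 libraries, because the study had left out a library of the OO + PFA group for suspected RNA degradation. It was taken to be that of pig OP77, which had the most alignments that were not unique (36.6 per 100 read pairs on genes). Of the hepatocyte markers, albumin and *TTR* separated the tissues: albumin was at 59974 to 147967 CPM (counts scaled to a common library size) in the liver and at most 0.216 in the ileum, where *TTR* was at 0 in every pig. *SERPINA1* was low in both, at 0.644 to 3.78 CPM in the liver and at most 0.0497 in the ileum. *APOA1* overlapped, at 2406 to 6478 CPM in the liver and 1130 to 3846 in the ileum. *FABP2*, an enterocyte gene, was at 1897 to 4072 CPM in the ileum and at most 0.117 in the liver.

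The repeat that defines the family is shown for 3 pairs of partner chains, because partners in a trimer differed from each other in the liver for types V and VI, and less for type I. Each line is 1 whole exon of the triple helix on Sscrofa11.1, read from the RefSeq genome in the direction of the gene, with the glycine codon that starts each triplet in capitals. The first 4 exons have 45 bases and the last 2 have 54.
COL1A1 (chr12:26393311-26393355, minus strand): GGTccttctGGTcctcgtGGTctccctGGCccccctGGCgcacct
COL1A2 (chr9:74184055-74184099, plus strand): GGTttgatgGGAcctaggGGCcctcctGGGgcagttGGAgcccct
COL5A1 (chr1:274025482-274025526, plus strand): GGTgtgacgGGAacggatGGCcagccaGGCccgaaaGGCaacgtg
COL5A2 (chr15:93666263-93666307, minus strand): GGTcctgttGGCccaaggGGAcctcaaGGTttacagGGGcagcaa
COL6A2 (unplaced scaffold, 609955 to 610008, minus strand): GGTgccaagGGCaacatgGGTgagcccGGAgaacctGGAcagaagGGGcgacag
COL6A3 (chr15:137048553-137048606, minus strand): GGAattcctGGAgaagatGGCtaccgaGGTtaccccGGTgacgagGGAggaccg
In the longest RefSeq coding sequence of each gene, the longest unbroken Gly-X-Y stretch was 338 triplets in *COL1A1*, 339 in *COL1A2*, 339 in *COL5A2* and 178 in *COL5A1*. The stretch was 59 in *COL6A2*, 42 in *COL6A3* and 30 in *COL18A1*, whose helix is interrupted. A fault in a gene model also ends such a stretch, and the models were not checked. The stretches are therefore not helix lengths, and the 178 of *COL5A1* is not read as a difference between the type V partners. Codon use differed most between the type V partners. Of the glycine codons, 59.5% ended in G or C in *COL5A1* and 30.6% in *COL5A2*, 65.8% in *COL6A2* and 61.2% in *COL6A3*, and 34.4% in *COL1A1* and 26.1% in *COL1A2*. Over the 37 members with a RefSeq record, the GC content of the exons ran from 43.8% to 71.1% (median 57.8%). *COL6A1* had no record there, so it has no length and no GC content below.

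In the control ileum 3 fibrillar genes made up most of the collagen RNA. Levels between genes are compared per kilobase of RefSeq exons. *COL3A1*, the chain of type III collagen, was highest at 752 ± 350 CPM per kilobase (SD, n = 5), followed by *COL1A2* at 203 ± 90.7 and *COL1A1* at 112 ± 27.1, the chains of type I collagen. These 3 genes took 47.0%, 13.6% and 9.05% of the summed collagen CPM. *COL5A2* (45.1), *COL14A1* (36.8), *COL17A1* (31.4), *COL6A3* (31.1) and *COL4A2* (25.0 CPM per kilobase) came next, and among these 5 genes neighbours in the order lay within 1 SD of each other. In the control liver the same 3 genes led, with *COL3A1* at 125.8 ± 68.4, *COL1A2* at 46.4 ± 22.6 and *COL1A1* at 41.4 ± 15.2 CPM per kilobase (SD, n = 6), and the type I chains were within 1 SD of each other. The fourth liver gene was *COL18A1*, whose product carries the endostatin fragment, at 22.2 ± 8.33 CPM per kilobase and 9.58% of the summed collagen CPM. All members together took 0.497% to 1.18% of the counts in the control ileum and 0.103% to 0.227% in the control liver.

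Ileum and liver were compared in the 5 control pigs that gave both tissues, in a fit without a term for the pig. The study gave a lower bound for RNA integrity that was higher for its ileum RNA than for its liver RNA. The tissues may thus differ in RNA quality too, and the 2 cannot be told apart here. There 24 of 32 members tested differed between ileum and liver at an adjusted p of at most 0.05 (edgeR's quasi-likelihood test, with the Benjamini-Hochberg adjustment taken over all genes), where 69.4% of all 14375 genes tested did. Of these 24, 22 were higher in the ileum, against 35.8% of all genes called higher there and 33.7% called lower. *COL8A2*, *COL11A2*, *COL17A1* and *COL28A1* are among the 22 and passed the filter on low counts only through the ileum, where they are high, so they had to differ. With at least 10 counts required in every library, 18 of 24 members and 8111 of all 11921 genes tested were called. Of these 18 members 16 were higher in the ileum, and the median log2 difference (ileum minus liver) over the members was 1.37. With the filter as used elsewhere it was 1.42 over the members and 0.03 over all genes. By class it was 1.37 for the fibrillar genes (8 of 10 called), 0.37 for the basement membrane genes (2 of 5) and 1.57 for the other genes (14 of 17). *COL17A1*, a transmembrane collagen of the hemidesmosomes that anchor epithelia, stood at 128 ± 54.4 CPM in the ileum and 0.233 ± 0.151 in the liver (SD, n = 5 each, scaled across both tissues), with 1 to 12 read pairs per liver. *COL11A2* was at 2.35 ± 0.653 CPM in the ileum and had 0 to 2 read pairs in these livers. *COL15A1*, a collagen beside muscle and vessel basement membranes, was higher in the ileum by 3.03 on the log2 scale (standard error 0.37) and *COL23A1*, a transmembrane collagen, by 3.87 (standard error 0.20).

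Against this direction, *COL18A1* was 6.95-fold higher in the liver, at 220.4 ± 93.7 CPM against 31.7 ± 17.9 in the ileum (log2 difference -2.80, standard error 0.45, adjusted p = 0.000139), and the lowest liver (147 CPM) was above the highest ileum (50.9). *COL4A4* was the other gene higher in the liver, at 4.79 against 2.22 CPM (log2 difference -1.11, adjusted p = 0.0145). Of the leading genes, *COL3A1* was higher in the ileum by 1.33 (adjusted p = 0.0105) and *COL1A2* by 0.89 (adjusted p = 0.0360), and *COL1A1* did not pass the test (0.23, standard error 0.24, adjusted p = 0.40). The groups did not overlap for 19 members, where they did not for 57.1% of all genes. The size of these differences rests on the scaling. Without a scaling factor the median of all genes moved to 1.13, and 29 members and 11769 of the 14375 genes were called. There *COL4A4* stood at -0.04, and the sign turned for *COL13A1* (from -0.69 to 0.43), *COL4A3* (from -0.80 to 0.27) and *COL11A1* (from -0.09 to 1.01), none of them called with the scaling factor. *COL18A1* stayed higher in the liver, at -1.69. With the pig as a block 25 members were called, *COL8A1* in addition (0.88 without the block, standard error 0.45), where 10000 of the 14375 genes were called.

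**Figure D1:**
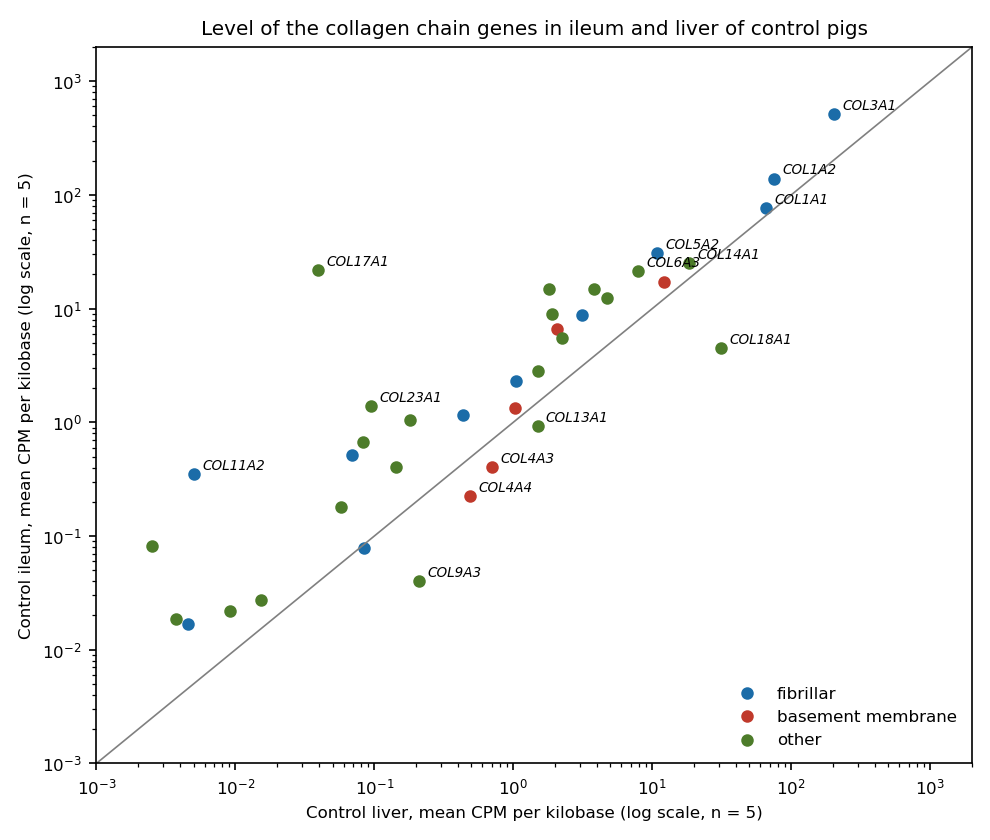
Mean level of each collagen chain gene in the liver (x axis) and ileum (y axis) of the same 5 control pigs, in CPM per kilobase on log axes and scaled across both tissues, coloured by class, with the line of equal level. Most genes lie above the line, and COL18A1, 6.95-fold higher in the liver, lies farthest below it among the abundant genes.

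In the ileum no collagen chain gene passed the test between PFA and control pigs. Of the 38 members, 32 passed the filter on low counts, and 0 of these were called (edgeR's quasi-likelihood test), as were 0% of all 14300 genes tested. DESeq2 called 0 members as well. At an unadjusted p under 0.05 there were 2 members, *COL4A4* and *COL17A1*, both lower, where 2.8% of all genes reached that value (1.27% lower), and DESeq2 had 3. Without P134 it was 5 of 33 members, and 2026 of 14371 genes. The fitted change was below 0 for 21 of 32 members (65.6%, against 46.7% of all genes) and its median was -0.12 (all genes 0.02). The median ran from -0.22 without P95 to 0.00 without C110 when each pig was left out, and it was -0.05 with the correction for base composition described further down. By class it was below 0 for 6 of 10 fibrillar, 5 of 5 basement membrane and 10 of 17 other genes. No member had groups that did not overlap, where 0.559% of all genes had such groups. The 6 members not tested (*COL10A1*, *COL22A1*, *COL25A1*, *COL2A1*, *COL9A1* and *COL9A3*) had at most 45 read pairs in any ileum.

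The basement membrane chains *COL4A3* and *COL4A4*, which form a trimer with the product of *COL4A5* in mature epithelial basement membranes, lie head to head on chromosome 15. Their RefSeq records overlap at the start, where the assignment of reads depends on the strand setting of the counting, which is not known here. *COL4A4* stood at 2.36, 2.97, 3.31, 3.47 and 4.02 CPM in the control ileum and at 1.05, 1.64, 1.85, 2.30 and 3.09 CPM with PFA. Its 4 lowest PFA pigs were below every control pig, and the highest lay inside the control range. The log2 fold change was -0.70 (standard error 0.28, adjusted p = 0.991 by edgeR). *COL4A3* was at 3.64, 4.94, 5.26, 5.31 and 5.90 CPM in control pigs and at 2.27, 2.34, 3.18, 3.80 and 5.70 with PFA, a log2 fold change of -0.54 (standard error 0.27). The PFA pig that was highest for both genes was P138. *COL17A1* was at 104, 128, 167, 249 and 282 CPM in control pigs and at 98.6, 114, 123, 125 and 164 with PFA. These groups overlapped, with a narrower spread in the PFA pigs, and the log2 fold change was -0.58 (standard error 0.26, adjusted p = 0.991 by edgeR).

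*COL18A1* and *COL11A2* had fitted changes at least as large as that of *COL4A4*, with more spread. *COL18A1* was at 12.4, 27.9, 48.0, 67.1 and 74.6 CPM in control pigs and at 13.5, 17.8, 19.1, 23.4 and 67.4 with PFA, so that P134 stood apart from the other 4 PFA pigs. Its log2 fold change of -0.70 (standard error 0.52) ran from -1.32 to -0.46 when each pig was left out in turn. *COL11A2*, a chain of the minor fibrillar type XI, was at 2.10 to 4.35 CPM in control pigs and 0.299 to 4.44 with PFA (log2 fold change -0.82, standard error 0.56). The most abundant gene, *COL3A1*, was at 3586 ± 1667 CPM in control pigs and 3401 ± 726 with PFA (SD, n = 5 each). The summed collagen CPM overlapped as well, from 4968 to 11785 in control pigs and from 5548 to 9248 with PFA. Single pigs moved many members together: P138 was the lowest of its diet for 18 of the 32 genes and C80 for 16, and C110 was the highest for 16. Cell type markers also varied between these pigs, with 2157 to 8876 CPM of smooth muscle markers in control pigs and 3481 to 10155 with PFA, and 9176 to 12511 and 7368 to 13795 CPM of enterocyte markers. Their part in the result was not tested.

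**Figure D2:**
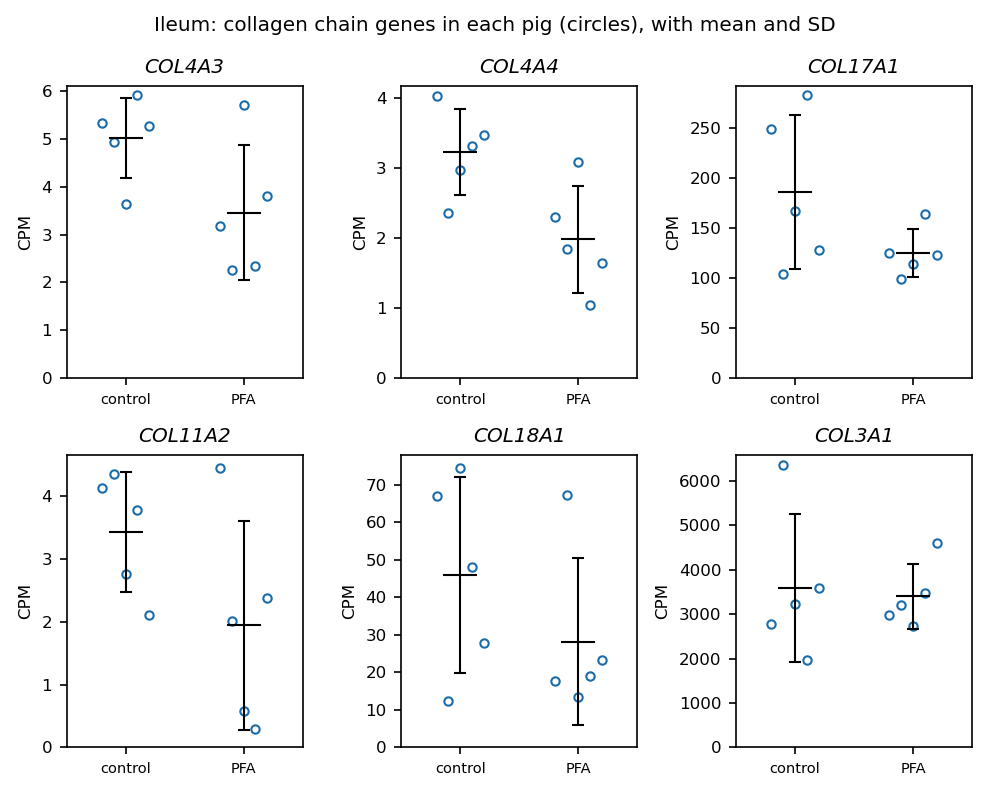
CPM (y axis, from 0) of 6 collagen chain genes in each ileum library, control and PFA pigs as circles (n = 5 each), with the mean as a bar and the SD as whiskers. The groups overlap in every panel, and P134 stands at 67.4 CPM in the COL18A1 panel, above the other 4 PFA pigs.

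In the liver 2 of 29 members tested differed across the 4 diets (edgeR's quasi-likelihood F-test, adjusted p of at most 0.05), *COL6A2* (adjusted p = 0.0317) and *COL18A1* (adjusted p = 0.0345). Over all 13831 genes tested 3.66% were called. No member was called across the diets in 7 of the 23 fits that left out a single liver. The other 9 members (*COL10A1*, *COL11A2*, *COL17A1*, *COL22A1*, *COL25A1*, *COL28A1*, *COL2A1*, *COL8A2* and *COL9A1*) had at most 23 read pairs in any liver and did not pass the filter. The comparisons of single diets below share the same 6 control livers.

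Most of the calls were in OO + PFA livers, where 6 of 29 members rose and none fell: *COL18A1*, *COL9A3*, *COL6A2*, *COL6A1*, *COL5A1* and *COL4A2*. Of all genes 5.08% were called in this comparison and 4.09% were called higher. The same 6 members were the ones whose groups did not overlap, where 9% of all genes did not (7.13% higher). They came from every class, with 1 of 9 fibrillar genes, 1 of 5 basement membrane genes and 4 of 15 other genes called. The median log2 fold change was 0.12 for the fibrillar, 0.17 for the basement membrane and 0.34 for the other genes, and 0.24 over all 29 against -0.01 over all genes. At an unadjusted p under 0.05 there were 9 members, all higher (22.6% of all genes, 14.6% higher), with *COL1A1*, *COL16A1* and *COL27A1* in addition.

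*COL18A1* (ENSSSCG00000038089, chr13:207907835-207984082 on Sscrofa11.1) was at 101 CPM in the lowest control liver, 150.2 at the median and 245 in the highest. The OO + PFA livers were at 671, 696, 749, 891 and 1033 CPM. Every OO + PFA pig was thus above every control pig, and the log2 fold change was 2.38 (standard error 0.56, 5.19-fold, adjusted p = 0.0227). *COL9A3* (ENSSSCG00000040554, chr17:62074108-62094228), a chain of the fibril-associated type IX known from cartilage, was rare. It was at 0.347, 0.611 and 0.807 CPM (lowest, median and highest) in control livers and at 2.03, 2.66, 3.57, 4.00 and 5.40 in OO + PFA livers. The log2 fold change was 2.52 (standard error 0.69, adjusted p = 0.0357), and it rests on 12 to 33 read pairs in control livers and 61 to 171 in OO + PFA livers.

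The type VI chains form beaded filaments around cells from a trimer of the products of *COL6A1*, *COL6A2* and usually *COL6A3*. *COL6A2* (ENSSSCG00000028022, on an unplaced scaffold) was at 9.19, 10.8 and 22.4 CPM in control livers (lowest, median and highest). In OO + PFA livers it was at 35.4, 43.1, 48.9, 59.2 and 89.7 CPM, with no overlap. Its log2 fold change of 2.09 (standard error 0.43, 4.27-fold, adjusted p = 0.0121) was the smallest p of any member. *COL6A1* (ENSSSCG00000022506) was at 18.5, 23.2 and 41.0 CPM in control livers and at 46.0, 69.9, 73.5, 79.6 and 149 in OO + PFA livers. Here too the groups were apart, and the log2 fold change was 1.75 (standard error 0.42, adjusted p = 0.0229). *COL6A3* did not pass the test. It was at 26.6, 46.6 and 75.8 CPM in control livers and at 40.2, 49.5, 62.8, 74.5 and 74.9 in OO + PFA livers, a log2 fold change of 0.24 (standard error 0.24) with full overlap. The remaining type VI chains *COL6A5* and *COL6A6* were not called.

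*COL5A1* (ENSSSCG00000005751, chr1:273934219-274083264), the chain of type V collagen that limits the width of fibrils, was at 4.87, 11.7 and 20.2 CPM in control livers and at 24.2, 29.3, 33.7, 42.0 and 49.6 in OO + PFA livers. The lowest OO + PFA pig was just above the highest control pig. The log2 fold change was 1.59 (standard error 0.36, 3.01-fold, adjusted p = 0.0200). *COL4A2* (ENSSSCG00000009545, chr11:76996885-77161617), a chain of the common type IV network, was at 36.1, 50.0 and 75.2 CPM in control livers and at 80.4, 118, 128, 152 and 173 in OO + PFA livers, again without overlap. Its log2 fold change was 1.34 (standard error 0.35, adjusted p = 0.0309). The other basement membrane chains had log2 fold changes from 0.01 to 0.32.

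Of the abundant fibrillar genes, *COL3A1*, *COL1A2* and *COL5A2* showed no difference beyond their spread in OO + PFA livers. *COL3A1* was at 227, 631 and 1003 CPM (lowest, median and highest) in control livers and at 377, 633, 644, 669 and 800.3 in OO + PFA livers, a log2 fold change of 0.06 (standard error 0.31). For *COL1A2* it was 0.12 (standard error 0.33) and for *COL5A2* -0.09 (standard error 0.25). *COL1A1* was at 154, 248 and 402 CPM in control livers and at 176, 344, 383, 539 and 918 in OO + PFA livers, with OP79 highest, and was among the 9 members at an unadjusted p under 0.05 but not called (log2 fold change 0.89, standard error 0.36, adjusted p = 0.137). *COL8A1*, a short-chain network collagen, had the lowest fitted value, -0.73 (adjusted p = 0.259 by edgeR), and was not called. Summed over each class, the other chains were at 295 to 530.2 CPM in control livers and 949 to 1535 in OO + PFA livers, without overlap. *COL18A1* alone supplied 671 to 1033 CPM of the latter. The basement membrane sum was at 54.4 to 97.97 and 103 to 194 CPM, also without overlap. *COL4A2*, itself called, supplied most of that sum, and the other chains of the class had log2 fold changes from 0.01 to 0.32. The fibrillar sum overlapped, from 591 to 1778 and from 754 to 2046 CPM.

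The count of 6 depended on single livers and on the base composition correction. Without OP79 or without C71 it was 1, without C100 or C110 it was 2, without C85 it was 3, and *COL6A2* was called each time.

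**Figure D3:**
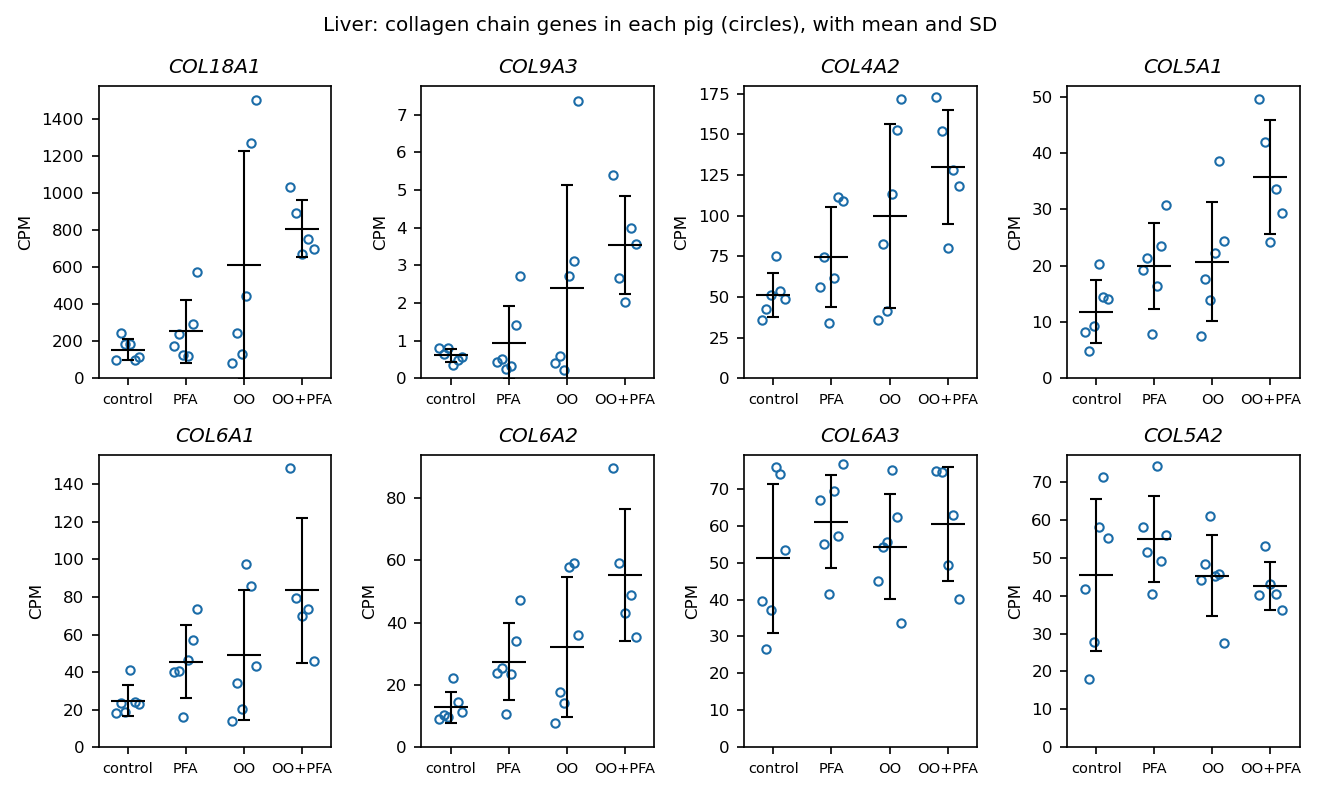
CPM (y axis, from 0) of 8 collagen chain genes in each liver library by diet (n = 6, 6, 6 and 5), pigs as circles, with the mean as a bar and the SD as whiskers. The OO+PFA pigs lie above every control pig in the first 6 panels, and the groups overlap for COL6A3 and COL5A2, the partners of called genes.

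With oxidized oil alone, 1 of 29 members rose, *COL18A1*, and 2.71% of all genes were called (1.37% higher). Its log2 fold change was 1.98 (standard error 0.54, 3.93-fold) with an adjusted p of 0.0496 by edgeR, at the threshold. The OO livers were at 84.0, 132, 243, 447, 1269 and 1501 CPM, against at most 245 in control livers. Only 3 of the 6 OO pigs (OO99, OO102 and OO130) were thus above the control range. The same 3 pigs stood at 2.72, 3.12 and 7.37 CPM for *COL9A3*, and the other 3 at 0.213, 0.416 and 0.605, within or below the control range. At an unadjusted p under 0.05 there were 6 members, all higher, where 21.4% of all genes reached it (12.1% higher). Besides *COL18A1* these were *COL6A2* (log2 fold change 1.31, adjusted p = 0.0750), *COL9A3* (1.94, adjusted p = 0.10), *COL4A2* (0.96, adjusted p = 0.104), *COL6A1* (0.98, adjusted p = 0.156) and *COL5A1* (0.80, adjusted p = 0.185, all by edgeR). No member had groups apart (2.24% of all genes). The median over the members was 0.19 and over all genes 0.06, and that of the members was 0.01 without OO99, 0.05 without C80 and 0.07 without C85. No member was called in 18 of the 23 fits that left out 1 liver, among them those without OO99, OO102 or OO130. Without OO74 the count was 3 and without OO97 it was 4, where 848 and 1325 of all genes were called, against 375 with all 23 livers.

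With PFA alone 0 of 29 members were called in the liver (edgeR's quasi-likelihood test), as were 0% of all genes, and DESeq2 called 0 members. At an unadjusted p under 0.05 there were 4 members, all higher, where 11% of all genes reached it (3.8% higher): *COL6A2* (log2 fold change 1.09, standard error 0.41), *COL6A5* (1.30, standard error 0.61), *COL6A1* (0.88, standard error 0.40) and *COL5A1* (0.74, standard error 0.35). All but *COL5A1* belong to type VI. The count of 4 was 1 without C71, C80 or C85, where 1711, 838 and 1057 of all genes reached that value. It was 5 without C92 or OO88. *COL6A5* was at 6.56, 17.8 and 52.1 CPM in control livers and at 24.6, 41.7 and 88.4 with PFA (lowest, median and highest), and the groups overlapped. The fitted change was above 0 for 22 of 29 members (75.9%, all genes 53.8%), with a median of 0.27 against 0.03. In OO + PFA livers it was likewise above 0 for 22 of 29 (all genes 48.8%), and in OO livers for 21 of 29 (all genes 57.7%).

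When PFA was added to the oxidized oil, no member passed the test against oxidized oil alone. For OO + PFA against OO 0 of 29 members were called by edgeR (0% of all genes) and 0 by DESeq2, with *COL5A1* (log2 fold change 0.79, standard error 0.36, adjusted p = 0.575) the 1 member at an unadjusted p under 0.05 (8.5% of all genes). The interaction of oil and additive gave 0 calls by edgeR (0% of all genes) and by DESeq2. There 1 member had an unadjusted p under 0.05 (13.6% of all genes), *COL6A6*, with an interaction of -1.79 on the log2 scale (standard error 0.71, adjusted p = 0.291). Its medians were 0.753 CPM in control, 2.19 in PFA, 1.82 in OO and 1.20 in OO + PFA livers. The additive's change in ileum and in liver was compared directly in the 10 pigs with both tissues, without a term for the pig. In this comparison 0 of 34 members were called by edgeR (0% of all genes) or DESeq2. At an unadjusted p under 0.05 there were 2 members (4.93% of all genes), *COL18A1* (-1.56) and *COL6A2* (-1.33), whose change was lower in the ileum, and DESeq2 had 4.

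**Figure D4:**
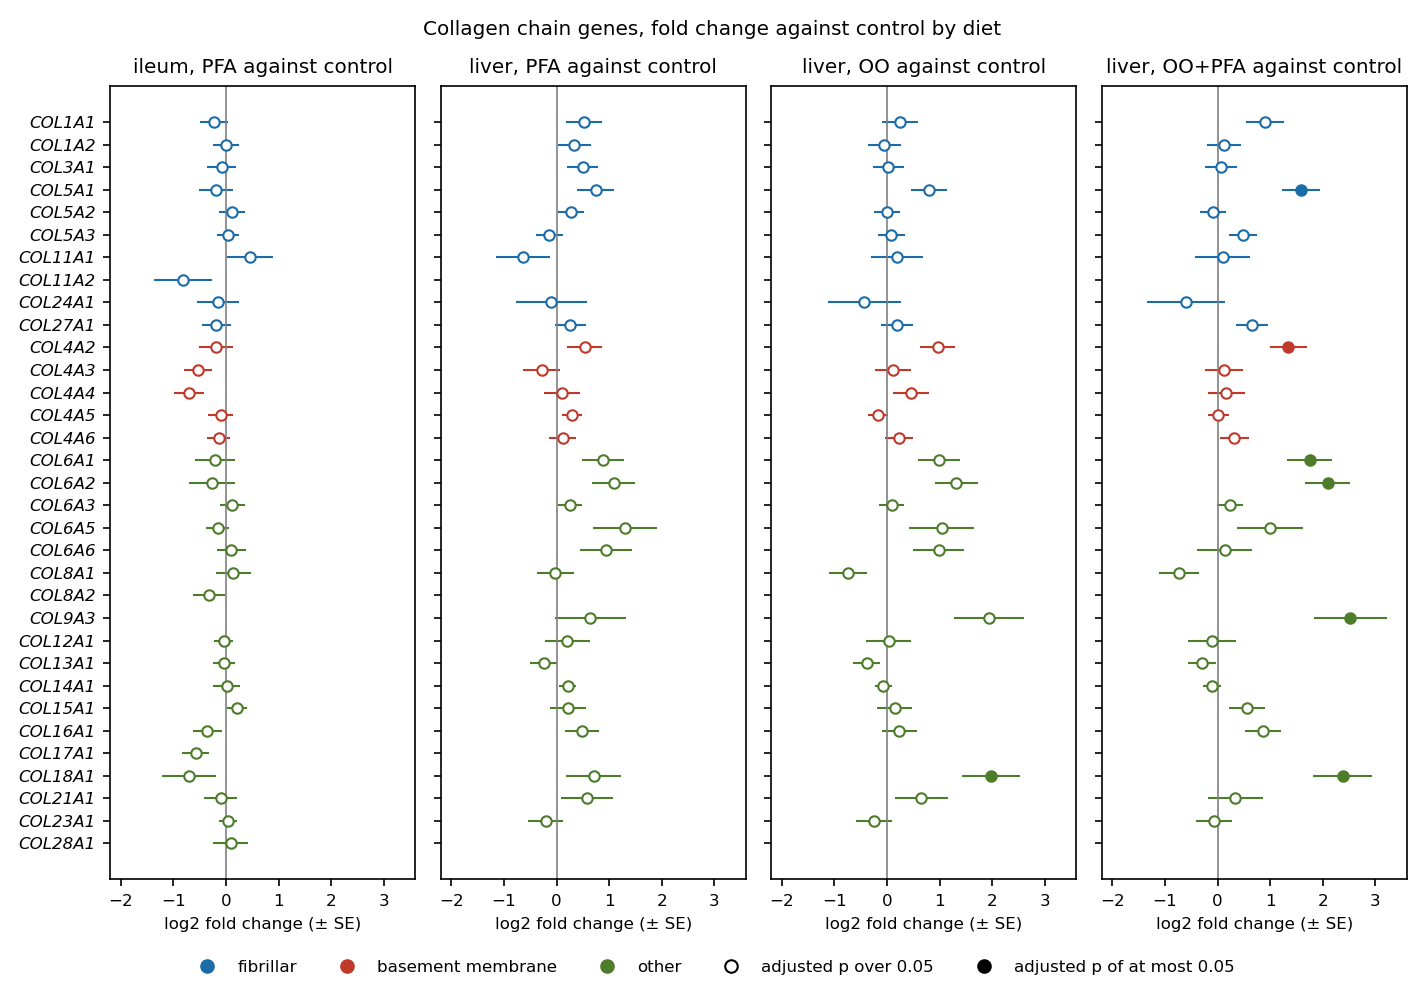
Log2 fold change against control (x axis, bars are standard errors) of each collagen chain gene tested, for PFA in the ileum and for PFA, OO and OO+PFA in the liver, coloured by class, filled where the adjusted p was at most 0.05. The 6 filled OO+PFA points and the 1 filled OO point all lie above 0, and the ileum panel and the liver PFA panel have no filled point.

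For types V and VI the counts of partner chains from the same liver stood in different ratios in OO + PFA and control livers. The pairs were chosen after their values were seen, so the ratios are a description without a test, and they are ratios of read pairs, not corrected for gene length. *COL5A1* to *COL5A2* ran from 0.196 to 0.349 in control livers and from 0.561 to 1.24 in OO + PFA livers. *COL6A2* to *COL6A3* ran from 0.198 to 0.386 and from 0.778 to 1.20, and *COL6A1* to *COL6A3* from 0.330 to 0.881 and from 1.07 to 1.99. In these 3 pairs no OO + PFA liver reached down to a control liver. *COL6A1* to *COL6A2*, which rose together, ran from 1.67 to 2.28 in control livers and from 1.30 to 1.66 in OO + PFA livers, close to each other but also apart. *COL1A1* to *COL1A2* overlapped, from 0.824 to 1.93 and from 1.43 to 2.58, as did *COL4A3* to *COL4A4*, from 1.04 to 1.52 and from 1.00 to 1.43. In OO livers, PFA livers and the ileum the ratios of all these pairs overlapped with control.

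Of the 6 members that rose in OO + PFA livers, 5 had a GC value, and all 5 had at least 60% GC in their exons. Of the 10 members tested with at least 60% GC, 5 were called, 9 had a log2 fold change above 0, and their median was 1.12. Of the 18 members under 60% GC none was called, 12 were above 0, and their median was 0.11. The share called among all genes of at least 60% GC was not counted, so the 5 of 10 has no matching rate. GC content was known for 11023 genes tested in the liver, 79.7% of them and under the 80% needed, so a check over all genes is void and their values are only described. The median was 0.56 for the 2308 of these genes with at least 60% GC and -0.07 for the 8715 others. Across genes, which are not independent replicates, the correlation of the log2 fold change with GC content was 0.76 (Pearson's r) over 28 members and 0.50 over the 11023 genes. The paired chains differ in this too: *COL5A1* has 68.4% GC and *COL5A2* 50.3%, *COL6A2* has 65.0% and *COL6A3* 58.4%, and *COL1A1* has 62.3% and *COL1A2* 53.7%. In the ileum the relation ran the other way (Pearson's r -0.47 over 31 members and -0.43 over 11341 genes), and 10 of the 11 members of at least 60% GC were below 0.

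Whole libraries differed in how their counts followed GC content. The slope of log2 CPM on GC content, per 10% GC, ran from -0.21 to 0.08 in control livers, from -0.46 to 0.07 in PFA livers, from -0.39 to 0.42 in OO livers and from 0.04 to 0.49 in OO + PFA livers. OO99, OO102 and OO130, high in *COL18A1*, had slopes of 0.30, 0.42 and 0.37, and the low pigs OO74, OO97 and OO88 had -0.35, -0.39 and -0.15. When a curve of log2 CPM on GC content was taken out of each library, 2 of 28 members were called in OO + PFA livers, *COL18A1* (log2 fold change 0.97, adjusted p = 0.00697) and *COL6A2* (1.27, adjusted p = 0.00481). In that fit 756 of all 11023 genes were called, a share close to that of the members. The same 28 genes without the curve gave 5 calls, and 604 of the 11023 genes were called. *COL5A1* went to 0.35 (adjusted p = 0.49), *COL4A2* to 0.24 (adjusted p = 0.384) and *COL9A3* to 1.36 (adjusted p = 0.0582, all by edgeR), and *COL6A1* could not be fitted for lack of a GC value. In OO livers *COL18A1* stayed called with the curve (0.75, adjusted p = 0.0243), as 1 of 28 members, where 810 of the 11023 genes were called. In the ileum *COL4A4* stood at -0.72 and *COL18A1* at -0.28 with the curve, and no member was called.

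**Figure D5:**
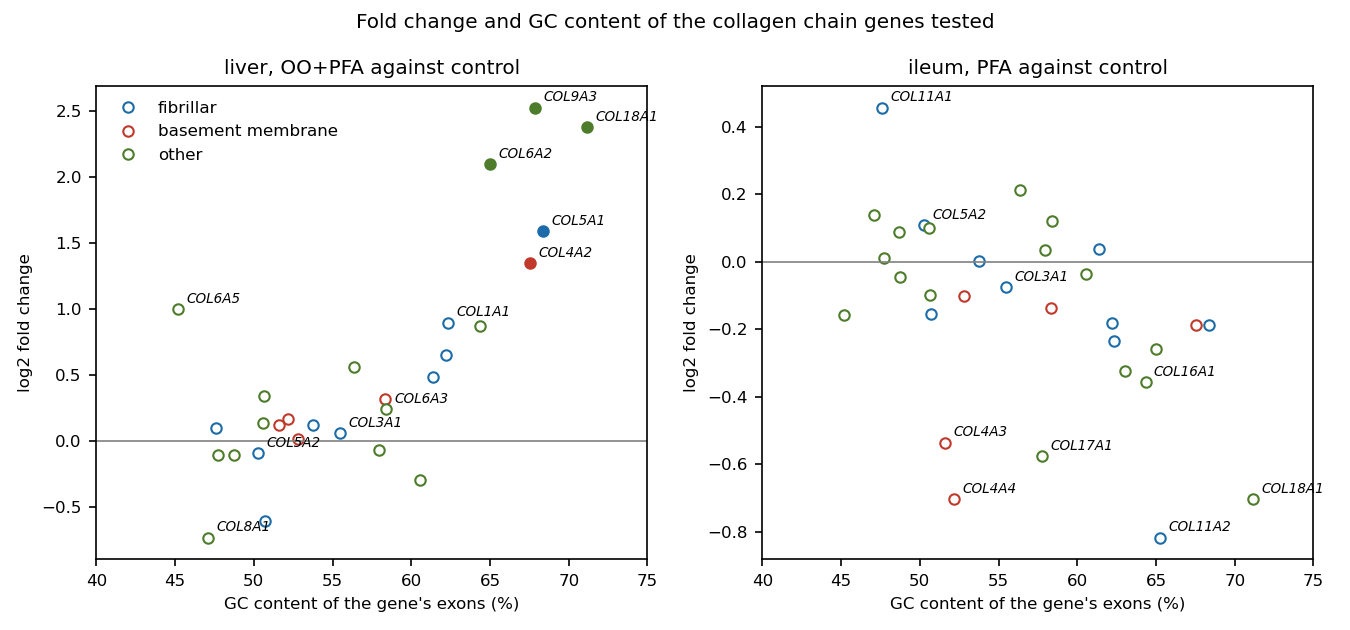
Log2 fold change (y axis) against the GC content of the exons in percent (x axis) for the collagen chain genes tested, OO+PFA against control in the liver on the left and PFA against control in the ileum on the right, coloured by class and filled where the adjusted p was at most 0.05. The 5 called members with a GC value all have at least 60% GC, and the relation has the opposite sign in the ileum (Pearson's r 0.76 and -0.47).

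Genes that build, cross-link and bind collagen were read from a list of 70 genes, of which 63 were tested in the ileum and 61 in the liver. In the ileum 0 of 63 were called by edgeR (0% of all genes), with 1 at an unadjusted p under 0.05 (2.8% of all genes). In OO + PFA livers 4 of 61 rose and none fell, where 4.09% of all genes were called higher. These were *SERPINH1*, the collagen chaperone of the endoplasmic reticulum (72.4 ± 28.5 against 33.8 ± 7.90 CPM, n = 5 and 6, log2 fold change 1.10, adjusted p = 0.0274 by edgeR), *P3H3*, of the prolyl 3-hydroxylase family (1.40, adjusted p = 0.0292), *LOXL1*, a lysyl oxidase that cross-links fibres (1.45, adjusted p = 0.0267), and *PXDN*, the peroxidase that cross-links type IV collagen (25.9 ± 5.58 against 10.2 ± 3.61 CPM, log2 fold change 1.34, adjusted p = 0.0267). The median over the list was 0.15, with 41 genes above and 20 below 0. The exons of these 4 genes hold 62.8% to 67.3% GC, and with the curve on GC content none of them was called. With OO and with PFA alone 0 of 61 were called by edgeR, with 10 and 6 at an unadjusted p under 0.05, where 21.4% and 11% of all genes were.

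Markers of the cells that make collagen were compared in the same livers. The summed CPM of 7 stellate cell and fibroblast markers was 64.2 to 145 in control and 123 to 159 in OO + PFA livers, and 0 of 7 were called by edgeR. The lowest adjusted p was that of *PDGFRB*, a growth factor receptor of stellate cells and pericytes, at 0.0527 (log2 fold change 1.09, standard error 0.33), with 15.7 to 48.5 CPM in control and 50.1 to 82.4 in OO + PFA livers, without overlap. The log2 fold changes of the other markers on this list ran from -0.28 (*PDPN*) to 0.42 (*RGS5*). The median of the list was 0.02, with 5 markers above and 2 below 0. Endothelial markers were at 66.3 to 360 and 178 to 291 CPM, smooth muscle markers at 87.5 to 268 and 114 to 160, leukocyte markers at 80.3 to 136 and 91.1 to 204, and hepatocyte markers at 68920 to 126306 and 68747 to 108815, with none of these called. Bile duct markers were at 9.33 to 18.1 and 14.1 to 18.7 CPM, red cell markers at 123 to 592 and 144 to 445, and enteric glia and neuron markers at 0.448 to 1.37 and 0.0333 to 0.690. Of the enterocyte list *SI* was at 0 in every control and OO + PFA liver, and 1 of 2 markers tested was called. This was *APOA4*, which pig liver also expresses, at 3.99 to 42.4 CPM in control and 16.8 to 675 CPM in OO + PFA livers (adjusted p = 0.0304 by edgeR). Its medians were 10.3 and 23.5 CPM, the latter inside the control range. The other, *VIL1*, had a log2 fold change of -0.71 (adjusted p = 0.367 by edgeR). The part of these cell markers in the result was not tested.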

How the data were processed

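The authors deposited whole-number counts of read pairs per Ensembl gene, without normalization, for 10 ileum and 24 liver libraries. Per the study's methods the reads were aligned with STAR 2.6.1d to Sscrofa11.1 and counted with HTSeq. The libraries were made with a stranded protocol. Neither the release of the annotation nor the strand setting of HTSeq is given in the sources used here. How reads of overlapping genes on opposite strands were assigned is therefore not known.

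Genes kept by filterByExpr were tested, after TMM scaling, with the two-sided quasi-likelihood test of edgeR 4.0.16 (limma 3.58.1, R 4.3.3). The Benjamini-Hochberg adjustment covered all genes tested, and a gene was called where its adjusted p did not exceed 0.05. The ileum, the liver and each comparison of the tissues were scaled in separate fits, so CPM values are compared within a fit. Tables and figures were made in Python 3.11.15 with numpy 2.4.6, pandas 2.3.3 and scipy 1.17.1, and the steps were tested on simulated counts. RefSeq exon unions of Sscrofa11.1 gave lengths, GC content and sequences for 37 members, although the counts were made on Ensembl models. Depth was 18738055 to 42446834 read pairs per library, and a gene with about 3 counts per library is at the limit of detection.

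The alternatives were DESeq2 1.42.0, DESeq2's size factors, no scaling factor, no filter, at least 10 counts in every library, a lowess curve on GC content per library (span 0.5), the liver fit with all 24 libraries, a covariate for how titles are written, a fit of the 2 diets compared alone, the pig as a block, and each pig left out in turn. Liver titles start with PigLiv or PL, both forms occur in every diet, and the labels do not say what the form means. The livers lowest of their diet for most of the 29 members tested all had PL titles. These were C80, P95 and OO130 (16 members each) and OP137 (17 members). The numbers in the titles mark the same animal in both tissues. The deviations of the paired libraries from their group means correlated at -0.18 to 0.46 over genes.

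The members, gene lists and markers were chosen with earlier results of these data known. Genes were named by rule: *COL1A1*, *COL1A2*, *COL3A1*, *COL4A2*, *COL6A1* to *COL6A3* and *COL18A1* always, the 3 highest genes of each class per tissue, and in each comparison the members called (otherwise the 5 lowest p) or not overlapping. Others, among them *COL5A2* and *COL8A1*, were named after their values were seen.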

Additional observations from a re-analysis of the deposited data

Results flagged for a closer look

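In the 148 groups of pigs examined for a single far value, 7 values from 5 pigs stood apart from the others of their diet, and chance gives about 1 in 20 groups. In the ileum with PFA these were P134 for *COL18A1* (67.4 CPM) and P95 for *COL1A2* (1332 CPM). In the OO livers OO99 was far above the others for *COL23A1* (0.644 CPM), *COL4A4* (8.80 CPM) and *COL6A5* (135 CPM), and OO88 for *COL6A6* (6.05 CPM). In the control livers C92 stood apart for *COL6A1* (41.0 CPM).

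The OO + PFA liver that the tests left out, OP77, showed values above the highest control liver for 5 of the 6 members called in that diet, here with every library scaled by its own total. It was at 572 CPM for *COL18A1* (highest control 228), 227 for *COL4A2* (81.9), 173 for *COL6A1* (44.6), 81.4 for *COL6A2* (24.3) and 9.02 for *COL9A3* (0.784). For *COL5A1* it was at 21.0 CPM, under the highest control liver (22.0). It was also above every control liver for *COL1A1* (673 CPM, highest control 437), *COL16A1* (19.7, 15.1) and *COL27A1* (3.47, 3.05), which were not called, and, with 1 to 9 read pairs in OP77, for *COL2A1*, *COL8A2* and *COL25A1*, which were not tested. It lay inside the control range for *COL3A1* (425 CPM) and *COL6A3* (62.7 CPM). For the library it left out, the study reported a base distribution with a C bias, strong selection of poly(A) tails and the lowest mapping rate. The tested members above every control liver, apart from *COL6A1* without a GC value, hold 62.2% (*COL27A1*) to 71.1% (*COL18A1*) GC. *COL5A1* holds 68.4%. The part of the C bias was not tested, and the share of all genes above every control liver was not counted.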

How the results depend on the processing

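The count of members called across the 4 diets was 2, and it was 6 with DESeq2 and 6 with all 24 liver libraries. All genes called moved with it, from 506 of 13831 to 1787 of 19426 with DESeq2 and 1113 of 13744 with all 24 libraries. For OO against control the count of 1 became 3 with DESeq2 and 0 without a scaling factor, without the filter, with all 24 libraries, with a term for the form of the title and in a fit of the 2 diets alone. There DESeq2 called 1089 of 19426 genes, against 375 of 13831 by edgeR. The settings with a count of 0 called from 194 genes (2 diets alone) to 382 (term for the form). For OO + PFA against control the count of 6 became 2 with the curve on GC content, where *COL6A1* has no value, and was 5 to 7 otherwise apart from the pigs left out. With the curve 756 of 11023 genes were called. Leaving out each pig in turn gave 0 to 6 calls across the diets, 0 to 4 for OO, 1 to 6 for OO + PFA against control, 24 to 25 between the tissues and 0 in every fit of the other comparisons. Across the diets it was 0 without C71, C85, C100, C110, OP79, OP98 or OP126, and 6 without OO74 or OO97, where 995 and 1450 of all genes were called. The cause was not tested.

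Of the log2 fold changes of genes in the comparisons for which the rule names them, 950 values kept their direction and their side of the threshold, 54 kept the direction alone and 0 reversed. Members outside that rule are not in this count, and *COL4A3*, *COL11A1* and *COL13A1* turned sign between the tissues without a scaling factor. Of the class medians 3 moved by more than the spread between pigs, all between the tissues without a scaling factor (fibrillar 2.45, basement membrane 1.45, other 2.65). With the replicate block by pig 25 members were called between ileum and liver, against 24 without it, and 0 for the additive's change between the tissues. A member near 3 counts per library, such as *COL10A1*, could not be compared at this depth.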
